A study of Homo sapiens with 12 samples.

Results

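The genes of the epidermal growth factor (EGF) receptor family measured here were 3 receptors, EGFR, ERBB2 and ERBB3, and 5 ligands, HBEGF, AREG, EREG, TGFA and NRG1. They were taken by name from the gene symbols of the deposited count and FPKM tables, and make up 8 of 17197 symbols. Of these, 6 passed the filter on low counts and were tested among 13171 genes, while EREG and TGFA did not pass. The samples were 12 RNA libraries of AC16, an established human line made by fusing adult ventricular heart cells with SV40-transformed fibroblasts. All cells were transfected, either with a negative control siRNA or with an siRNA against EP300, a histone acetyltransferase and transcriptional coactivator. The group siNC (libraries 1 to 3) had the control siRNA and no oxidant, and siEP300 (libraries 4 to 6) had the EP300 siRNA and no oxidant. The groups siNC.H2O2 (libraries 7 to 9) and siEP300.H2O2 (libraries 10 to 12) had the same siRNAs and hydrogen peroxide (H2O2) for 1 h, starting 12 h after transfection, at a labelled 200 mM whose unit is doubtful. RNA was taken after 48 h. The labels do not tie a group's 3 libraries to separate cultures, so p-values reflect only the spread among libraries, part of which may be technical.

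The receptors of this family are tyrosine kinases that pair when a ligand binds, and pass the signal on through the RAS-ERK and PI3K-AKT cascades. EGFR binds HBEGF, AREG, EREG and TGFA, ERBB3 binds NRG1 and has little kinase activity of its own, and ERBB2 has no known soluble ligand and serves as the preferred partner of the others. The ligands are made as membrane-bound precursors that proteases of the ADAM family release. In the heart, neuregulin signalling to cardiomyocytes through ERBB2 and its partners is required for development and for the adult muscle's tolerance of stress.

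HBEGF and AREG were called higher in all 4 comparisons of 2 groups described below. AREG passed the filter only through its counts in the H2O2 groups, so its calls for H2O2 are no support for a rise. Its calls for the EP300 siRNA depended on single libraries. The 250 bases before the RefSeq starts of both genes are shown because they differ in the motifs they hold. RefSeq promoter windows (GRCh38.p14), matched by symbol, were used for 6 of the 8 members. No window was used for ERBB3 or NRG1, so motifs before their starts were not searched. In the sequences, capitals mark a match to the cyclic AMP response element, TGACGTCA. The AREG window is chr4:74444886-74445135 on the plus strand, and the HBEGF window is chr5:140346604-140346853 on the minus strand.
AREG: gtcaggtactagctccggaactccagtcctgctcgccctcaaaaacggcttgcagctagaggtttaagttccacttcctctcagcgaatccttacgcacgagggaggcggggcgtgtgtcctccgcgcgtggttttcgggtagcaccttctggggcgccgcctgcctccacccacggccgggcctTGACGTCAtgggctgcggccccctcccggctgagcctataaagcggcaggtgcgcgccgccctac
HBEGF: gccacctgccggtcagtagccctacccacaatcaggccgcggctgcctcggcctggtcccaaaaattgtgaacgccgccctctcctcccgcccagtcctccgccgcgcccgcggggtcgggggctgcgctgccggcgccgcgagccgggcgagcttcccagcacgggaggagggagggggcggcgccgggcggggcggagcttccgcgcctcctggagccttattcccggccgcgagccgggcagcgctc
The first base of the AREG match lay 65 bases before the start. TGACGTCA, searched on both strands, occurred in 1.65% of all 35116 windows of this length. The shorter core TGACG, which overlaps it on each strand in AREG, occurred in 21.2% of them, including those of EREG and 1 of 2 TGFA windows. The HBEGF window had no match to TGACGTCA, TGACG, the AP-1 motif TGANTCA (6.57% of windows), the E-box CACGTG (6.34%) or the antioxidant response core TGACNNNGC (10.9%). TGANTCA occurred in the ERBB2 window and in 1 of 2 EGFR windows, chr7:55109589-55109838, which lies inside the gene. The EGFR window at the gene's annotated start, chr7:55018767-55019016, had no match to it. These are matches of letters, and binding was not measured.

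The counts summed to between 16081437 and 19033679 per library. EP300 itself fell from 83.3 ± 16.1 to 36.6 ± 0.307 CPM (counts scaled to the library total; SD, n = 3) without H2O2, a log2 change of -1.19 (SE 0.14, adjusted p = 3.6e-06), and from 76.7 ± 15.3 to 27.8 ± 2.01 with H2O2, a log2 change of -1.46 (SE 0.14, adjusted p = 5.85e-07). For these libraries the labels' treatment field gives MLF1 as the target. MLF1 also fell, but less, with log2 changes of -0.22 without H2O2 (SE 0.06, edgeR adjusted p = 0.00519) and -0.29 with it (SE 0.06, adjusted p = 0.000686). The cardiomyocyte markers MYH6, MYH7, MYL2 and TNNT2 did not exceed 0.16 FPKM in any library and NKX2-5 was not among the symbols, whereas TNNI3 averaged 1.05, TNNC1 2.59, GATA4 4.88 and NPPB 107 FPKM in siNC, the only 4 of the 13 in the tables at 1 FPKM or more there. The cardiomyocyte list summed to 114 to 118 FPKM in siNC and 92.7 to 98.5 in siEP300, and with H2O2 to 118 to 156 (control siRNA) and 91.9 to 112 (EP300 siRNA). All 10 fibroblast markers averaged at least 1 FPKM in every group. The 7 epithelial markers summed to 315 to 349 FPKM in siNC and to 279 to 285 in siEP300, and with H2O2 to 481 to 518 (control siRNA) and 381 to 440 (EP300 siRNA), mostly from KRT18 and KRT8, with CDH1 at no more than 0.27 FPKM. The summed smooth muscle and leukocyte markers were lowest in siNC and highest in siEP300.H2O2, as HBEGF and AREG were, with overlap between some groups. Single markers of these lists went in each direction. The 7 smooth muscle markers summed to 151 to 160 FPKM in siNC, 189 to 191 in siEP300, 190 to 211 in siNC.H2O2 and 224 to 272 in the group with the EP300 siRNA and H2O2, mostly from TAGLN and SMTN, with MYH11 at no more than 0.11 FPKM. For 5 leukocyte markers the sums were 26.3 to 32.9, 30.8 to 34.1, 38.4 to 39.6 and 49.0 to 56.6 FPKM in the same order, mostly from CD68, with PTPRC at no more than 0.16 FPKM. From siNC to siEP300.H2O2, mean FPKM of the smooth muscle markers CNN1 and DES fell, from 36.9 to 13.1 and from 2.87 to 0.603. ACTA2 rose from 2.44 to 13.2 and LMOD1 from 2.88 to 4.16. The leukocyte marker CD14 fell from 5.87 to 2.89 while CD68 rose from 23.4 to 50.5. The part of these lists in the results was not tested.

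Without H2O2, the EP300 siRNA raised 5 of the 6 tested members and lowered none, where a gene was called at an adjusted p under 0.05 in edgeR's quasi-likelihood test. The 5 were HBEGF, AREG, NRG1, ERBB3 and ERBB2, and EGFR was not called. Of all 13171 genes tested, 61.5% were called in this comparison, 30.1% higher and 31.4% lower. With H2O2, HBEGF, AREG, ERBB3 and ERBB2 were higher with the EP300 siRNA and EGFR was lower, against 59.0% of all genes called, 28.4% higher and 30.6% lower. The members' median log2 change was 0.54 without H2O2 and 0.30 with it, beside medians of 0.00 and -0.02 over all genes tested. The members' medians are over 6 genes and include AREG, which passed the filter only through its counts in the H2O2 groups. Members were chosen with earlier results of these data known, so these medians and the directions called are a description and no independent support. Since more than 59% of all genes were called in each, the count of members called in either direction says little about the members.

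In cells with the control siRNA, H2O2 raised HBEGF, AREG, NRG1 and EGFR and lowered ERBB2 and ERBB3. AREG was among the tested members only through its counts in the H2O2 groups, so its place in this count is no support for a rise. Over all genes 35.3% were called, 17.8% higher and 17.4% lower. In cells with the EP300 siRNA, H2O2 raised HBEGF, AREG and EGFR and lowered ERBB2 and ERBB3, against 31.1% of genes called, 15.9% higher and 15.1% lower. The same limit holds for AREG there. The interaction (the effect of the EP300 siRNA in H2O2-treated cells less its effect in untreated cells) was called for NRG1 alone of the 6, in the lower direction. It was called for 3.33% of all genes, 1.12% higher and 2.21% lower.

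**Figure D1:**
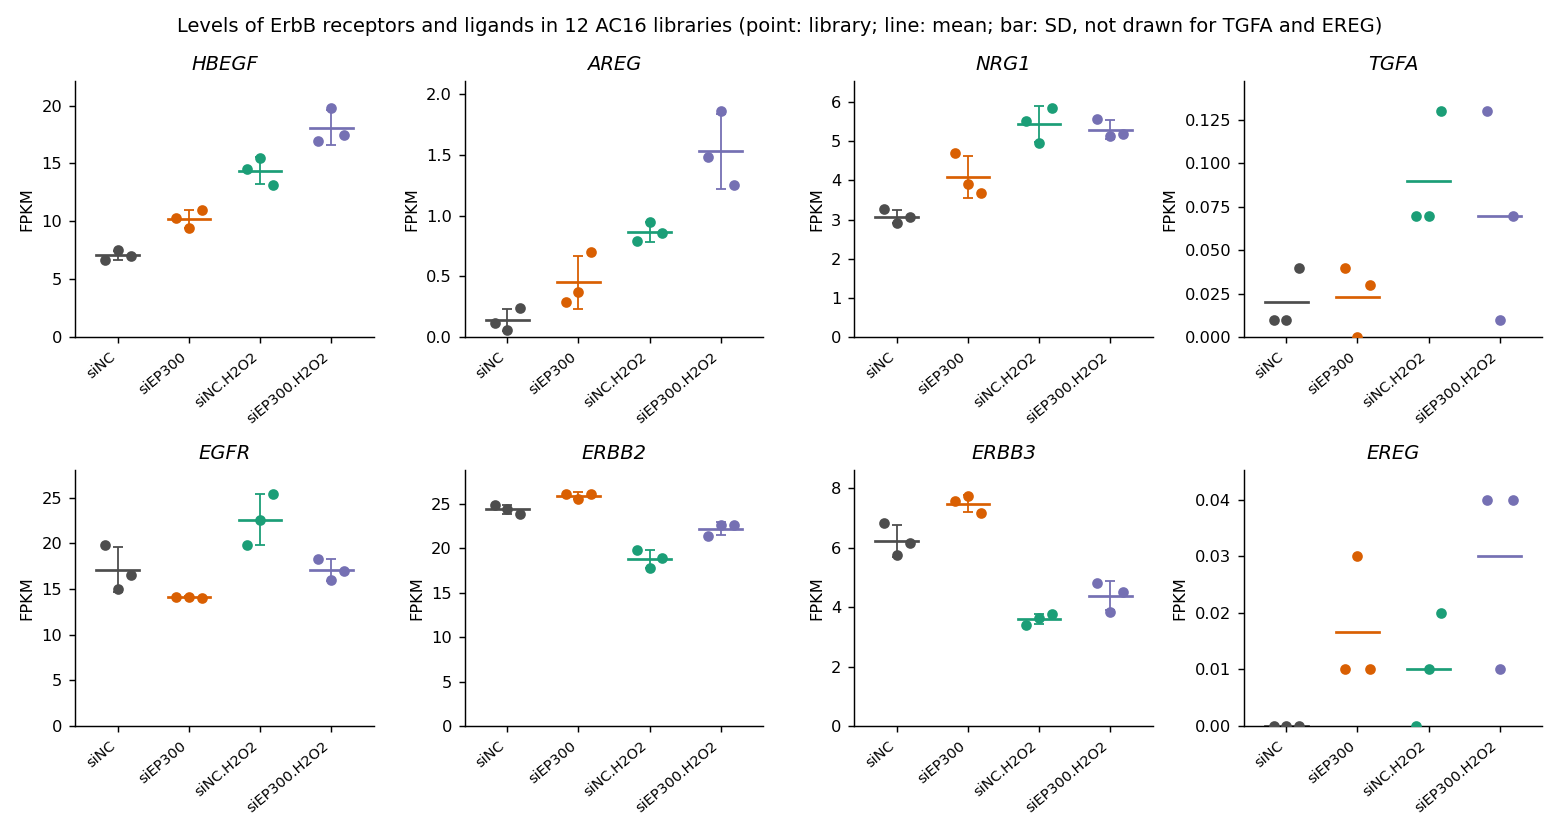
FPKM of the 8 genes (vertical axes, each from 0) in the 4 groups (horizontal axes). Points are libraries, lines are means and bars are the SD of 3 libraries, which is not drawn for TGFA and EREG. HBEGF and AREG climb from siNC to siEP300.H2O2, EGFR has its highest mean in siNC.H2O2, and ERBB2 and ERBB3 are lowest there.

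HBEGF (ENSG00000113070.7, GRCh38 chromosome 5, 140332843 to 140346631, minus strand) encodes heparin-binding EGF-like growth factor, which binds EGFR and ERBB4. Its level in siNC was 13.1, 14.9 and 13.9 CPM, and in siEP300 21.3, 19.2 and 22.6 CPM. The siNC.H2O2 libraries had 30.7, 32.0 and 27.3 CPM, and the siEP300.H2O2 libraries 35.2, 41.7 and 37.2 CPM. None of the 4 groups overlapped, and the order from lowest to highest was siNC, siEP300, siNC.H2O2, siEP300.H2O2. The EP300 siRNA raised HBEGF by 0.59 on the log2 scale without H2O2 (SE 0.09, adjusted p = 7.63e-05) and by 0.35 with it (SE 0.09, adjusted p = 0.00285). H2O2 raised it by 1.10 with the control siRNA (adjusted p = 4.22e-07) and by 0.85 with the EP300 siRNA (adjusted p = 4.99e-06). The interaction of -0.25 was not called (adjusted p = 0.358). All 4 changes were called in each of 21 alternative analyses. These include leaving out each library in turn, also libraries of groups not compared, so they overlap and are no independent tests.

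AREG (ENSG00000109321.10, chromosome 4, 74445134 to 74455009, plus strand) encodes amphiregulin, an EGFR ligand, and lies downstream of EREG (74365143 to 74388751) on the same strand. It was sparse: siNC had 2, 1 and 4 counts, siEP300 had 5, 6 and 12, siNC.H2O2 had 14, 14 and 15, and siEP300.H2O2 had 25, 31 and 22. As with HBEGF, no group overlapped another and the groups came in the same order. AREG passed the filter through its counts in the H2O2 groups, so its calls for H2O2 are no support for a rise. From the summed counts, scaled to library totals, AREG was 3.45 times higher with the EP300 siRNA without H2O2 (exact 95% interval 1.43 to 9.52, counting error only) and 1.79 times higher with H2O2 (1.22 to 2.66). With H2O2 it was 6.62 times higher in control siRNA cells (2.95 to 17.4) and 3.43 times higher in EP300 siRNA cells (2.13 to 5.72). The fitted changes were called in all 4 comparisons, with adjusted p = 0.0107, 0.0184, 0.000429 and 0.00073 in that order, although the fitted size at such counts depends on the prior count. The calls for the EP300 siRNA depended on single libraries. Without library 6 the change without H2O2 had an adjusted p of 0.0887. The change with H2O2 had an adjusted p of 0.0561 without library 7, 0.0833 without library 11 and 0.0641 in DESeq2.

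NRG1 (ENSG00000157168.18) encodes neuregulin 1, the ligand of ERBB3 and ERBB4. Its level in siNC was 9.13, 8.28 and 8.16 CPM. The siEP300 libraries had 16.7, 14.3 and 14.3 CPM, those of siNC.H2O2 13.5, 12.3 and 15.2 CPM, and those of siEP300.H2O2 17.1, 14.0 and 14.8 CPM. The siNC libraries were lowest, and the other groups overlapped each other. The EP300 siRNA without H2O2 raised NRG1 1.77-fold (log2 change 0.83, SE 0.11, adjusted p = 1.15e-05), and H2O2 with the control siRNA raised it 1.60-fold (log2 change 0.68, adjusted p = 0.000237). With H2O2 already present, the EP300 siRNA difference was 0.16 (SE 0.10, adjusted p = 0.199), and with the EP300 siRNA already present the H2O2 difference was 0.02 (SE 0.10, adjusted p = 0.92). The interaction was -0.67 (SE 0.15, adjusted p = 0.0255). It was called in 11 of 20 alternative analyses. Leaving out any of libraries 2, 3, 4, 9, 11 or 12 gave adjusted p-values of 0.0587 to 0.0854, and tests on FPKM gave 0.114 to 0.167.

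For NRG1 the 2 deposited tables did not move together. With the control siRNA, FPKM averaged 3.08 ± 0.176 without H2O2 and 5.44 ± 0.455 with it, and with the EP300 siRNA 4.09 ± 0.531 and 5.29 ± 0.240 (SD, n = 3). A gene length is implied where a count and an FPKM are given for the same library, and for NRG1 it was 2886 ± 98 bases in siNC and 3700 ± 159 bases in siEP300. In cells with H2O2 it was 2468 ± 92 bases for the control siRNA and 2812 ± 192 bases for the EP300 siRNA. The lengths of the groups did not overlap within any of the 4 comparisons (exact permutation p = 0.1 in each, two-sided, the smallest that 3 against 3 allows). The longest was 1.63 times the shortest, against a median of 1.023 over 9884 genes with at least 2 FPKM in every library, of which 0.293% reached the ratio of NRG1. On the log2(FPKM + 0.1) scale, limma called the H2O2 difference with the EP300 siRNA at 0.37 (adjusted p = 0.0124), which the counts put at 0.02. Transcripts were not analysed separately here.

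**Figure D2:**
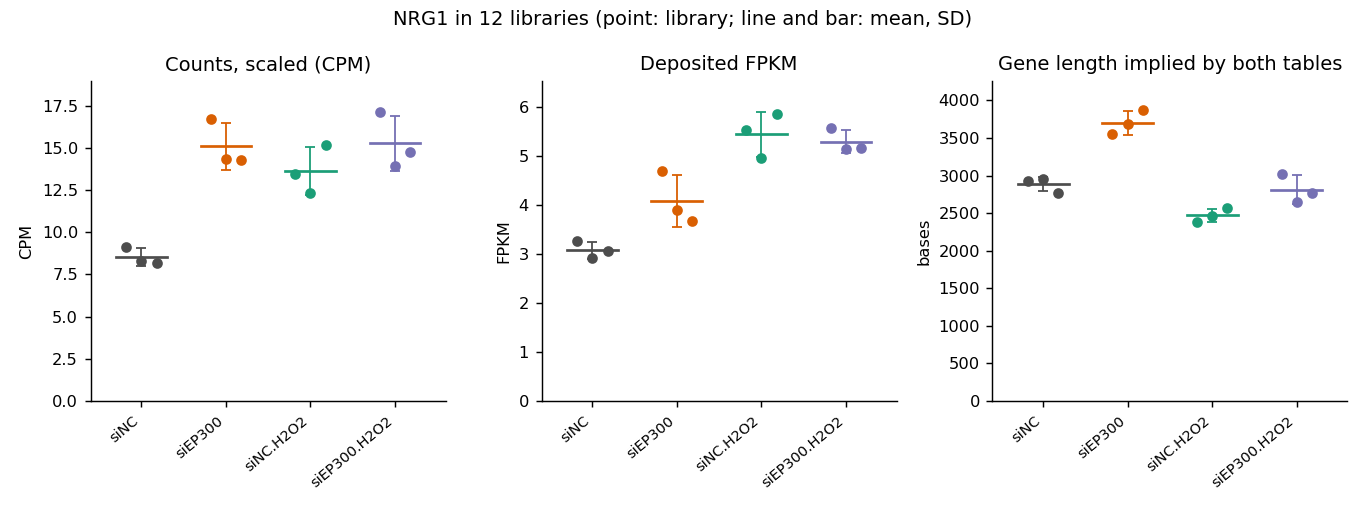
NRG1 in the 4 groups (horizontal axes) as scaled counts (CPM), deposited FPKM and the gene length in bases that the tables together imply. Points are libraries and bars are the SD of 3 libraries; siEP300 stands with the H2O2 groups in CPM, below them in FPKM, and has the longest implied length.

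The other EGFR ligands were at the limit of detection. TGFA (ENSG00000163235.15, chromosome 2, 70447280 to 70554193, minus strand), which encodes transforming growth factor alpha, had 1, 1 and 3 counts in siNC and 3, 0 and 2 in siEP300. Libraries with H2O2 had 5, 4 and 9 counts for the control siRNA and 9, 1 and 5 for the EP300 siRNA. The siNC and siNC.H2O2 libraries did not overlap, and the summed counts gave a ratio of 3.88 for H2O2 (exact 95% interval 1.39 to 13.4, counting error only). An edgeR fit with no filter on low counts did not call it (adjusted p = 0.0805). EREG (ENSG00000124882.3), which encodes epiregulin, had 0 counts in each siNC library, 1, 2 and 1 in siEP300, 0, 1 and 2 in siNC.H2O2, and 3, 1 and 3 in siEP300.H2O2. No library exceeded 3 counts, the number that a count of 0 still allows, so no fold is given.

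EGFR (ENSG00000146648.17, chromosome 7, 55019021 to 55211628, plus strand), the receptor for the ligands above other than NRG1, stood at 174, 128 and 144 CPM in siNC and 132, 129 and 130 CPM in siEP300. In the siNC.H2O2 libraries it reached 180, 208 and 235 CPM, and in those of siEP300.H2O2 172, 147 and 161 CPM. In CPM the siNC.H2O2 libraries were the highest, above every library of the other groups. In FPKM library 7 of siNC.H2O2 (19.79) lay just below library 1 of siNC (19.81). The siNC libraries spread across the range of siEP300 and siEP300.H2O2. H2O2 raised EGFR 1.40-fold with the control siRNA (log2 change 0.48, SE 0.10, adjusted p = 0.00242) and by 0.29 on the log2 scale with the EP300 siRNA (SE 0.11, adjusted p = 0.0455). The second call held in 11 of 21 alternative analyses. In cells with H2O2 the EP300 siRNA lowered EGFR, with a log2 change of -0.38 (SE 0.10, adjusted p = 0.00602), a call kept in all 21 alternative analyses. Without H2O2 the difference was -0.19 (SE 0.11, adjusted p = 0.129), and it was called in 4 of 21 alternative analyses. Limma on filtered FPKM gave -0.25 with a pseudocount of 1 (adjusted p = 0.038) and -0.27 with 0.1 (adjusted p = 0.0374). Without library 2, edgeR gave -0.28 (adjusted p = 0.033).

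EGFR has a long transcript, and its spread within groups moved with that of other long transcripts. Its length in the tables was 9135 bases, longer than 97.0% of tested genes. In library 1 EGFR lay 0.24 above the siNC mean on the log2 scale while the longest 10% of genes had a median deviation of 0.16, and in library 7 EGFR lay -0.20 from the siNC.H2O2 mean while those genes lay at -0.13. The signs matched in 9 of 12 libraries, and the other 3 libraries had EGFR deviations within 0.02 of their group means. A per-library correction for gene length was fitted to deviations from each gene's mean over all 12 libraries. It therefore also takes up length-related differences between groups, not only spread within them. With this correction in edgeR, the EP300 siRNA difference in EGFR without H2O2 was -0.41 (adjusted p = 6.56e-07), and with H2O2 it was -0.51 (adjusted p = 3.08e-08). Libraries 1 and 7 were also left out, a choice made after seeing the data. In edgeR the difference without H2O2 was then -0.06 (adjusted p = 0.473) and that with H2O2 -0.47 (adjusted p = 1.39e-05). The interaction was called at -0.41 (adjusted p = 0.0108). Library 1 was the highest for EGFR in siNC and library 7 the lowest in siNC.H2O2. The removal itself therefore moved these values, which are no test of an interaction. Libraries 2 and 9, at -0.20 and 0.19 from their group means, were kept.

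**Figure D3:**
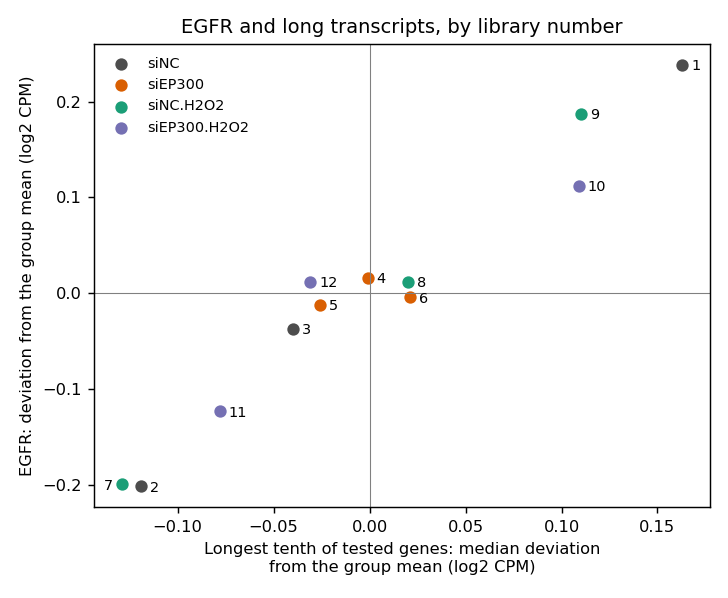
Deviation of EGFR from its group mean (vertical axis, log2 CPM) against the median deviation of the longest 10% of tested genes (horizontal axis, log2 CPM), with 1 point per library, numbered and coloured by group. Libraries 1, 9 and 10 are high on each axis and libraries 2, 7 and 11 low on each.

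ERBB2 (ENSG00000141736.13, chromosome 17, 39687914 to 39730426, plus strand) moved over a narrow range. It was at 99.5, 96.3 and 95.2 CPM in siNC and 108, 106 and 109 CPM in siEP300. The siNC.H2O2 libraries had 82.9, 73.5 and 79.5 CPM, and those of siEP300.H2O2 had 90.3, 96.5 and 94.8 CPM. The siEP300 libraries were the highest and the siNC.H2O2 libraries the lowest, with no overlap with any other group, while siNC and siEP300.H2O2 overlapped. H2O2 lowered ERBB2 with the control siRNA (log2 change -0.30, SE 0.06, adjusted p = 0.00067) and with the EP300 siRNA (-0.20, adjusted p = 0.0125). The EP300 siRNA raised it by 0.25 with H2O2 (SE 0.06, adjusted p = 0.00108). The rise of 0.15 without H2O2 (SE 0.05, adjusted p = 0.0252) was called in 13 of 21 alternative analyses. It was lost when library 2, 3, 4 or 6 was left out, with adjusted p-values of 0.0541 to 0.0732. It was also lost with the length correction, at 0.10 (adjusted p = 0.126), and in limma on FPKM, at 0.09 (adjusted p = 0.129 to 0.156).

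ERBB3 (ENSG00000065361.15, chromosome 12, 56076799 to 56103505, plus strand) was at 26.8, 23.8 and 26.3 CPM in siNC and 36.5, 36.9 and 34.5 CPM in siEP300. In H2O2-treated cells it was at 14.6, 15.0 and 16.8 CPM with the control siRNA and 23.3, 18.8 and 21.2 CPM with the EP300 siRNA. No group overlapped another, with siEP300 highest and siNC.H2O2 lowest. H2O2 lowered ERBB3 with each siRNA, with log2 changes of -0.73 (SE 0.09, adjusted p = 1.82e-05) and -0.77 (SE 0.08, adjusted p = 9.54e-06) and an interaction of -0.04 (SE 0.12, adjusted p = 0.922). The EP300 siRNA raised it by 0.49 without H2O2 (SE 0.08, adjusted p = 0.000122) and by 0.45 with it (SE 0.09, adjusted p = 0.000576). Its implied length was longer with the EP300 siRNA, 4790 ± 17 bases against 4280 ± 171 without H2O2 and 4696 ± 120 against 4218 ± 155 with it. In FPKM the corresponding rises were smaller, at 0.26 and 0.27 on the log2(FPKM + 0.1) scale, and were called by limma (adjusted p = 0.026 and 0.0218).

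**Figure D4:**
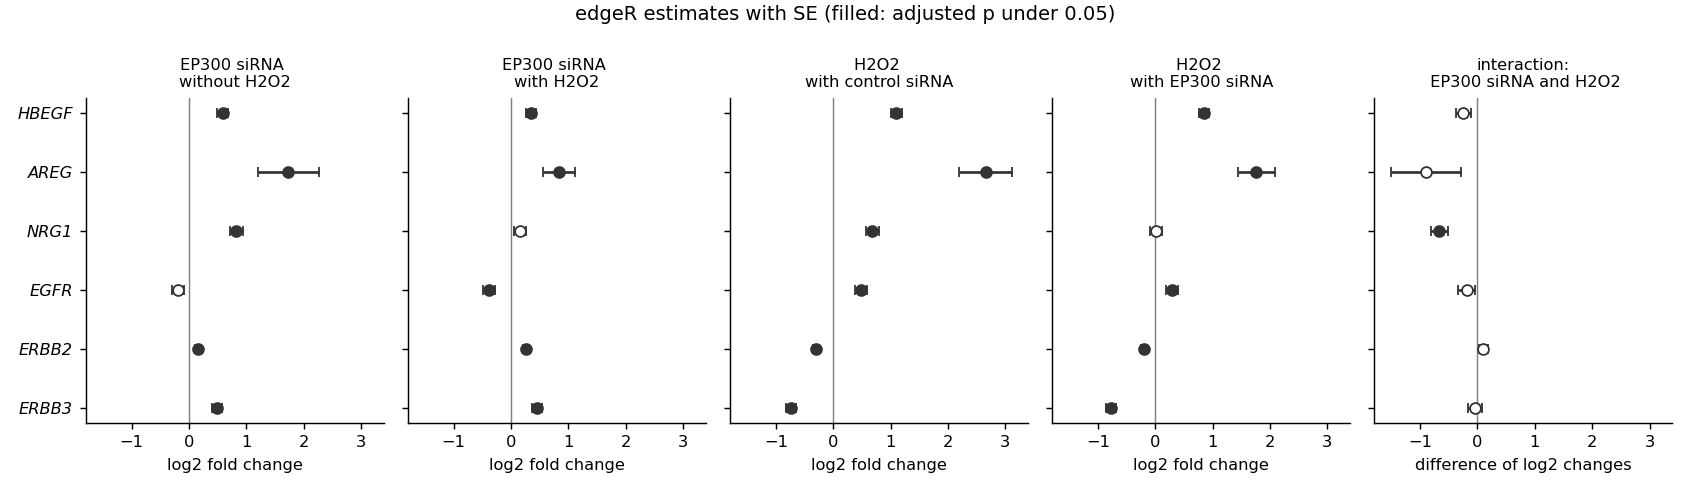
Log2 fold changes (horizontal axes) with their SE from edgeR for the 6 tested members in the 4 comparisons of 2 groups and the interaction; filled points had an adjusted p under 0.05. ERBB2 and ERBB3 lie right of 0 for the EP300 siRNA and left of 0 for H2O2, and NRG1 has the filled interaction, at -0.67.

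Compared per length, in FPKM, the order of the members' levels differed between groups. In siNC it ran from ERBB2 (24.4 ± 0.514) through EGFR (17.1 ± 2.48), HBEGF (7.07 ± 0.416), ERBB3 (6.24 ± 0.540) and NRG1 (3.08 ± 0.176) to AREG, TGFA and EREG, and the HBEGF and ERBB3 libraries overlapped. In siNC.H2O2, EGFR (22.6 ± 2.82) and ERBB2 (18.8 ± 1.00) met at 19.8 FPKM in library 7, the lowest for EGFR and the highest for ERBB2, and HBEGF averaged 14.4 ± 1.19. In siEP300.H2O2, HBEGF (18.1 ± 1.52) and EGFR (17.1 ± 1.17) overlapped below ERBB2 (22.2 ± 0.749). The ratio of EGFR to ERBB2 was 0.80, 0.61 and 0.70 in siNC, 0.54, 0.56 and 0.54 in siEP300, 1.00, 1.27 and 1.35 in siNC.H2O2, and 0.86, 0.71 and 0.75 in siEP300.H2O2. The siNC.H2O2 ratios lay above, and the siEP300 ratios below, those of every other library. Of the summed FPKM of the 5 ligands, HBEGF made up 68.6% in siNC (66.3% to 71.56%) and 72.3% in siEP300.H2O2 (70.14% to 73.85%), which overlapped. NRG1 went from 29.9% (27.77% to 32.41%) to 21.2% (19.15% to 23.04%), and AREG from 1.36% to 6.09%. The implied length of NRG1 differed between these groups, and its part in these shares was not tested.

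Other receptors and ligands of the family were scarce. ERBB4 had 1 to 14 counts per library, NRG2 at most 11, EPGN at most 2 and BTC at most 1, and NRG3 was not among the symbols. EGF averaged 1.04 ± 0.192 CPM in siNC and rose to 2.62 ± 0.575 in siEP300 (log2 change 1.33, SE 0.24, adjusted p = 0.000236). In H2O2-treated cells it was 0.921 ± 0.339 CPM with the control siRNA and 1.47 ± 0.0884 CPM with the EP300 siRNA (adjusted p = 0.0526). With the EP300 siRNA, H2O2 lowered EGF (log2 change -0.83, SE 0.23, adjusted p = 0.0131). NRG4, a ligand of ERBB4, fell with the EP300 siRNA without H2O2 from 1.72 ± 0.499 to 1.07 ± 0.221 CPM (log2 change -0.68, SE 0.27, adjusted p = 0.0363), a call that DESeq2 did not make.

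Among 13 genes of ligand shedding and processing, the EP300 siRNA raised 6 and lowered 5 without H2O2, and raised 4 and lowered 5 with it, beside 61.5% and 59.0% of all genes called. The 3 smallest adjusted p-values in each of these comparisons belonged to genes that were lower. FRMD8, a binding partner of the iRhoms, fell from 49.3 ± 1.86 to 21.7 ± 1.17 CPM without H2O2 (log2 change -1.18, adjusted p = 1.17e-09) and by 1.04 on the log2 scale with it. RHBDF2, the iRhom that carries the sheddase ADAM17 to the cell surface, changed by -0.66 and -0.87. ADAM12, a protease that can release HBEGF, changed by -1.04 and -1.52, and FURIN, a proprotein convertase that activates ADAM proteases, by -0.57 and -0.43. Other proteases rose: ADAM17 itself by 0.53 and 0.36 and ADAM15 by 0.26 and 0.51, genes named here after their values were seen. H2O2 raised 4 and lowered 1 of the 13 with the control siRNA (35.3% of all genes called), and raised 5 and lowered 2 with the EP300 siRNA (31.1%). Limma on FPKM gave 1 or 2 raised in place of the 4.

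The cascades below the receptors moved in each direction. Of 20 genes of the adaptors and the RAS-ERK cascade, the EP300 siRNA raised 8 and lowered 8 without H2O2 and raised 7 and lowered 6 with it, beside 61.5% and 59.0% of all genes called. KSR1, a scaffold of the cascade, fell (log2 changes -1.25 and -1.20), as did the ERK-activated kinase RPS6KA1 (-0.59 and -0.23). PTPN11, the phosphatase SHP2 that promotes RAS activation, rose by 0.79 and 0.95, and NRAS by 0.69 and 0.61. Of 15 genes of the PI3K-AKT arm, the EP300 siRNA raised 7 and lowered 4 without H2O2 and raised 5 and lowered 6 with it. Among the regulatory subunits of PI3K, PIK3R1 rose (0.72 and 0.38) while PIK3R2 (-0.62 and -0.56) and PIK3R3 (-0.36 and -0.54) fell, and the kinase AKT1 rose (0.34 and 0.52). For H2O2 with the control siRNA 35.3% of all genes were called, 17.8% higher and 17.4% lower. With the EP300 siRNA the share was 31.1%, 15.9% higher and 15.1% lower. With the control siRNA, H2O2 raised 4 and lowered 3 of the 20 and raised 6 and lowered none of the 15. With the EP300 siRNA it raised 4 and lowered 1 of the 20 and raised 2 and lowered none of the 15. These counts moved with the processing: limma on log2(FPKM + 1) gave 3 of the 15 raised with the control siRNA, and the length correction gave 7 of the 20.

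Of 25 tested genes of receptor turnover and feedback inhibition, the EP300 siRNA raised 15 and lowered 5 without H2O2 (30.1% and 31.4% of all genes) and raised 7 and lowered 10 with it (28.4% and 30.6%). Their median log2 change was 0.25 without H2O2 and -0.10 with it. LRIG1, which promotes degradation of EGFR family receptors, fell from 56.5 ± 3.94 to 23.5 ± 0.692 CPM in untreated cells and from 92.9 ± 6.39 to 26.2 ± 1.35 CPM in H2O2-treated cells (log2 changes -1.26 and -1.82), and its interaction was -0.56 (adjusted p = 0.0079). The ubiquitin ligase CBLB fell likewise (-0.83 and -1.61), with an interaction of -0.78 (adjusted p = 0.00627). The ERK phosphatase DUSP4 fell (-0.70 and -0.82) and the ERK phosphatase DUSP5 rose (1.04 and 0.82). H2O2 raised 16 and lowered none of the 25 with the control siRNA, beside 17.8% and 17.4% of all genes. It raised 8 and lowered 2 with the EP300 siRNA, and raised 13 there with the length correction, beside 15.9% and 15.1% of all genes called in the reported fit. The interaction was called for 7 of the 25, all in the lower direction, beside 3.33% of all genes and 2.21% lower. It was called lower for 13 with libraries 1 and 7 left out, where 15.1% of all genes were called. The list was chosen with earlier results of these data known, so these counts are a description and no independent support.

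Of 17 tested transcripts that respond to ERK signalling, H2O2 raised 14 and lowered 1 with the control siRNA (17.8% and 17.4% of all genes), and raised 14 and lowered none with the EP300 siRNA (15.9% and 15.1%). The medians were 1.13 and 1.14 on the log2 scale, beside -0.01 and 0.00 over all genes tested. This list was chosen with earlier results of these data known, so its counts and medians are a description and no independent support. The EP300 siRNA raised 12 and lowered none without H2O2 (30.1% and 31.4% of all genes), and raised 9 and lowered 4 with it (28.4% and 30.6%). EGR1, an immediate early transcription factor, rose from 54.6 ± 1.86 to 192 ± 14.0 CPM in untreated cells and from 56.8 ± 5.50 to 249 ± 18.8 CPM in treated cells (log2 changes 1.81 and 2.13). FOS, a subunit of AP-1, rose by 1.76 and 2.12, and IER2 by 1.62 and 1.44. H2O2 lowered FOS with the control siRNA (log2 change -0.55, adjusted p = 0.00168), and the EGR1 difference there was 0.06 (adjusted p = 0.634).

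**Figure D5:**
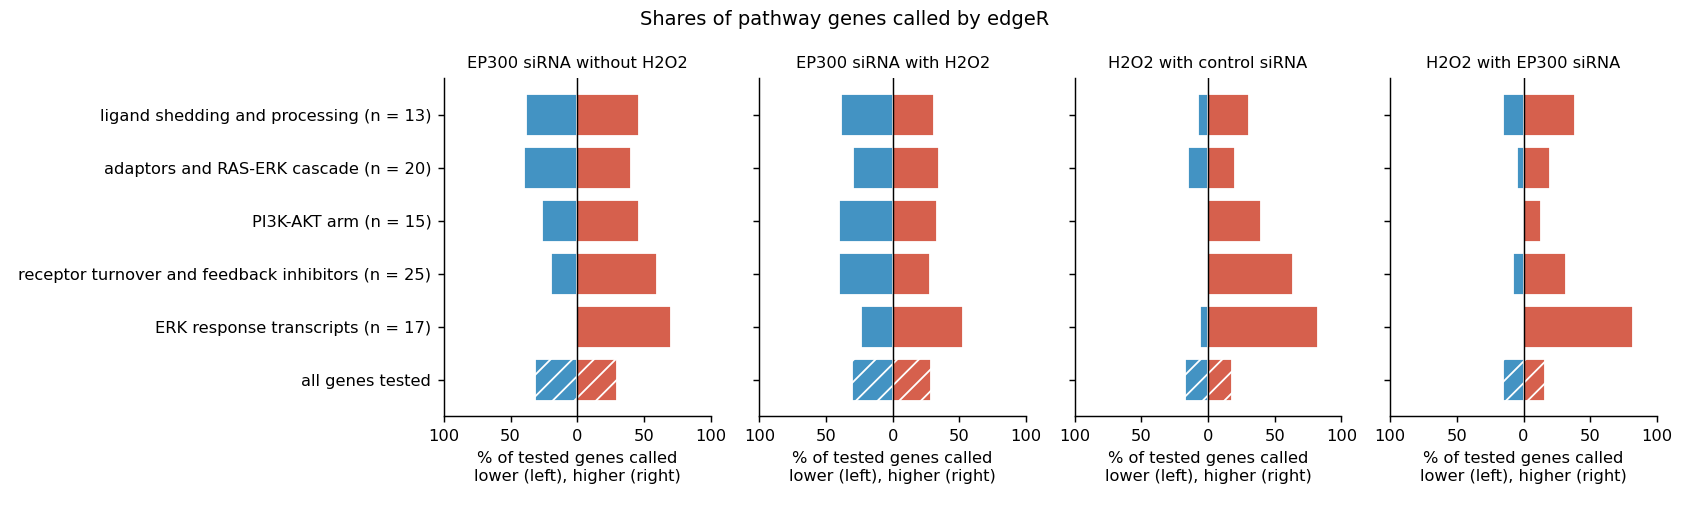
Percent of the tested genes of each pathway list called higher (red, to the right) and lower (blue, to the left) by edgeR in the 4 comparisons of 2 groups, with all genes tested hatched in the bottom row. The ERK response list has 14 of 17 genes higher with H2O2 for each siRNA, and the feedback list has 16 of 25 higher with the control siRNA. The lists were chosen with earlier results of these data known.

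The genes whose levels followed each member most closely over the 12 libraries were found among 10695 genes averaging 5 CPM or more, by Pearson correlation of log2 CPM. The 12 points share 4 groups, and the values are a description. HBEGF was closest to DUSP5 (r = 0.99, n = 12) and PNO1 (0.988). DUSP5 averaged 20.1, 41.2, 76.8 and 135 CPM in the 4 groups, in the order that HBEGF also followed. AREG was closest to TIGAR (0.974) and CHIC2 (0.970), and among the members to HBEGF (0.955). NRG1 was closest to EFNB2 (0.964) and FBXO38 (0.960). EGFR was closest to ASAP1 (0.985) and ATP2B1 (0.974), ERBB2 to AGA (0.965) and E2F1 (0.961), and ERBB3 to BTN3A1 (0.986) and DAG1 (0.985). Between receptors, the correlation was 0.909 for ERBB2 with ERBB3 and -0.872 for EGFR with ERBB2.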

How the data were processed

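The authors deposited estimated counts and FPKM per gene symbol; the tools named in the submitters' processing notes are Bowtie2 and HISAT, and the build is GRCh38.p13. For versions, counting program, annotation and strand setting, the sources used here give nothing. Of the estimated counts, 12.0% to 13.8% per library were not whole and were rounded. Samples were grouped by their titles. Members and gene lists were chosen with earlier results of these data known.

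Counts were fitted in edgeR 4.0.16 (R 4.3.3) with TMM scaling, filterByExpr, 1 mean per group over all 12 libraries and the quasi-likelihood test (two-sided, Benjamini-Hochberg over 13171 genes, called under 0.05). CPM are relative to the TMM-scaled total. The script was tested on simulated data. Alternatives were DESeq2 1.42.0, its size factors in edgeR, no count filter, only the groups compared, limma 3.58.1 on log2(FPKM + 1) or log2(FPKM + 0.1), with genes of at least 0.5 FPKM in 3 libraries or all genes, a per-library length offset (12464 genes with a length), each library left out, and, chosen after seeing the data, libraries 1 and 7 left out. Depth was 16081437 to 19033679 counts per library. Each group had n = 3, and the counts limit the precision for AREG, EREG and TGFA.

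Named genes were the members, the rest of the family, up to 3 genes with the smallest adjusted p of each pathway list in each EP300 siRNA comparison, the 2 most similar genes per tested member, EP300 and MLF1. Gene positions are from GENCODE v29 (GRCh38) and promoter windows from RefSeq.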

Additional observations from a re-analysis of the deposited data

Results flagged for a closer look

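The EP300 siRNA effect on NRG1 differed between cells without and with H2O2 by a test of the difference itself. The effect was 0.83 on the log2 scale without H2O2 and 0.16 with it, and the interaction was -0.67 (edgeR, adjusted p = 0.0255). This call was made in 11 of 20 alternative analyses and lost in the others, which were limma on FPKM (adjusted p = 0.114 to 0.167) and the removal of library 2, 3, 4, 9, 11 or 12 (0.0587 to 0.0854). All 3 siEP300 libraries lay above all 3 siNC libraries, while siEP300.H2O2 and siNC.H2O2 overlapped. The gene length implied by the deposited tables also differed between the groups for NRG1, and its part in the result was not tested.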

How the results depend on the processing

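Over 622 values of members under the alternatives, 570 kept their direction and side of the threshold, 32 lost the call, 8 gained it and 12 changed sign. None of the 12 was called in the reported fit or the alternative. Many alternatives leave out 1 library, also from a group not compared, so these values overlap and are not independent. The NRG1 difference for the EP300 siRNA with H2O2 was -0.0315 on log2(FPKM + 1), with or without the filter, and -0.0363 on log2(FPKM + 0.1). For H2O2 with the EP300 siRNA, NRG1 ranged from -0.0758 (without library 10) to 0.0932 (without library 4) when single libraries were left out. The ERBB3 interaction was 0.0116 on log2(FPKM + 0.1) and ranged from -0.1179 (without library 10) to 0.0388 (without library 11). The AREG interaction was 0.0895 on log2(FPKM + 1), with or without the filter. The number of genes called for the interaction was 439. It was 1111 with the length offset, 1996 with libraries 1 and 7 left out, and between 196 (without library 4) and 709 (without library 7) when single libraries were left out. The cause was not tested. The counts called in the other 4 comparisons stayed within 1.5 times. No paired analysis was possible because the titles number the libraries 1 to 12 and no number is shared between groups. Fitting only the groups compared gives no interaction, and leaves AREG without H2O2 below the filter. Of the counts of pathway genes called, 62 of 528 values differed by over 1.5 times from the reported count. Depth limits AREG, EREG and TGFA.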
